A study of Mus musculus with 2 samples.

Results

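The p53 target genes examined here were a list of 31 genes that p53, the transcription factor activated by DNA damage and other stress, is known to control in arrest, death and repair. They were found on the arrays through the RefSeq accession of each gene probe. All 31 had a probe, among 20823 genes that could be named in this way, and all 31 were well above background on both arrays, among 16608 such genes. Expression was compared between Baf53a- and Baf53b-expressing, Baf53a-deficient mouse ES cells. The parent cells were 1 E14-derived clone of Baf53a cKO ES cells, whose own Baf53a alleles had been mutated with CRISPR/Cas9 and whose survival depended on a resistant Baf53a that tetracycline (Tet) shuts off. Both groups shared this background and were kept in medium with LIF. Each was transfected with a vector for Myc-tagged Baf53a or for Myc-tagged Baf53b, and 48 h later was put in 1 μg/mL Tet for 6 days. There was 1 array per condition. Without replicates the differences below could not be tested, and they carry no p-value. Cells with an empty vector or without Tet were not on these arrays, so the values do not compare rescued with unrescued cells.

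In unstressed cells p53 is kept low by Mdm2, which marks it for destruction, and by Mdm4, which blocks its activity. Damage or other stress releases it from this control, and it then binds DNA at paired decamers and switches on inhibitors of the cell cycle, proteins of the death pathways, repair enzymes and its own inhibitors. In ES cells p53 is abundant, and it is known to act on survival and on differentiation. The comparison asks whether these genes stood at like levels when Baf53b took the place of Baf53a.

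The decamer to which p53 binds was looked for in the promoter windows of RefSeq (GRCm38.p6), from 250 bases before to 50 bases after each gene start. The consensus p53 decamer reads the same on both strands. Of the 31 genes, 23 had a window in that table, 32 windows in all. A decamer was present in at least 1 window of 12 of these 23 genes (52.2%), against 9.55% of 27025 genes with a window. Counted by window, it was present in 13 of 32 (40.6%) and in 8.36% of all 32851. A pair of decamers with at most 13 bases between them was found for 1 of the 23 genes, Cdkn1a, and for 20 of all genes (0.0740%). The list was drawn up from known p53 targets, so the decamers are a description of the genes and no result of the arrays. The stretches that follow show the match, in capitals, with up to 10 bases on each side, for genes of each role that had one. All are written 5′ to 3′ on the strand of the gene. Only exact matches were counted. For Cdkn1a, the 10 bases directly after the second decamer miss the consensus by 1 base. They were therefore not counted, and a pair formed with them was not considered.
Cdkn1a, chr17:29090896-29090925, plus strand, the first decamer of the pair: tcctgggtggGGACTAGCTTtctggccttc
Cdkn1a, chr17:29090918-29090947, plus strand, the second decamer of the pair: tggccttcagGAACATGTCTtgacatgttc
Ccng1, chr11:40755452-40755481, minus strand: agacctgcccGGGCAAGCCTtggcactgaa
Gadd45a, chr6:67037428-67037457, minus strand: ggttggctgaGGGCTAGCCCcatatctccg
Bax, chr7:45467080-45467109, minus strand: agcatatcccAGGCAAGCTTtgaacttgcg
Ei24, chr9:36797325-36797354, minus strand: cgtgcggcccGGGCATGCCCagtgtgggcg
Polk, chr13:96519399-96519428, minus strand: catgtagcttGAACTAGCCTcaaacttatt
Ppm1d, chr11:85311112-85311141, plus strand: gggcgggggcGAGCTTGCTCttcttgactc
Sesn1, chr10:41887256-41887285, plus strand: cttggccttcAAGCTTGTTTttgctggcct

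The labels were checked first. Actl6b, the gene of Baf53b, was at least 14.5-fold higher in Baf53b-expressing cells. On the other array its probe did not clear the background, so that the lowest signal well above background there, being the higher, took its place in this ratio. Actl6a, the gene of Baf53a, stood at 1.71 and 1.67, so that its probe lends no support to the Baf53a label. These and all levels below are log2 signals relative to the 75th percentile of the array, given for Baf53a- and then for Baf53b-expressing cells, and differences are Baf53b minus Baf53a. Of 15 ES cell markers, all were well above background on both arrays, with differences from -0.15 to 0.21 and a median of -0.023. Markers of other cell types also differed between the arrays, where 49.1% of all genes were higher in Baf53b-expressing cells. All 18 primitive endoderm markers were higher in Baf53b-expressing cells (median 0.24, summed linear signal 67.8 and 77.1), and so were all 9 trophoblast markers measured of 10 (median 0.20, summed signal 49.6 and 60.3). Of the primitive endoderm markers, Lamc1 was the brightest, at 4.89 and 4.94, and differed least (0.048). Most of the trophoblast sum came from Krt18 alone, at 5.07 and 5.39, and the 4 probes of Gcm1, also counted as higher, ran from -0.39 to 0.35. Of the 8 fibroblast markers measured of 10, 6 were higher (summed signal 1.50 and 1.51). More cells of a type and more RNA per cell cannot be told apart in such bulk RNA, and the part of these markers in the values of the p53 targets was not tested.

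The p53 target genes stood at nearly the same level on both arrays. Their differences ran from -0.100 for Ddb2 to 0.19 for Perp, which is from 1.07-fold lower to 1.14-fold higher in Baf53b-expressing cells. The median was 0.031, against -0.0032 over all 16608 genes, and the SD between genes was 0.0737, against 0.188 over all genes. As a mark of size, a log2 difference of 0.32 was used. None of the 31 was higher by that much, where 5.58% of all genes were, none was lower by that much, where 2.01% were, and none was 2-fold apart, where 0.193% were. With each array centred on its median, the shares of all genes higher and lower by 0.32 became 4.06% and 3.20%, and they were 3.48% and 3.52% after quantile normalization. None of the 31 reached 0.32 under any of the 10 alternative settings. Most of the list was bright, and bright genes differed little in general. In the 2 brightest of 5 groups of equal probe number there were 25 of the 31 targets and 6880 of all genes, and 1.06% of those 6880 genes reached 0.32 in either direction. The SD of the differences there was 0.0763 for the targets and 0.109 for all genes. The count of 0 among the targets was thus near the share among genes of like brightness.

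**Figure D1:**
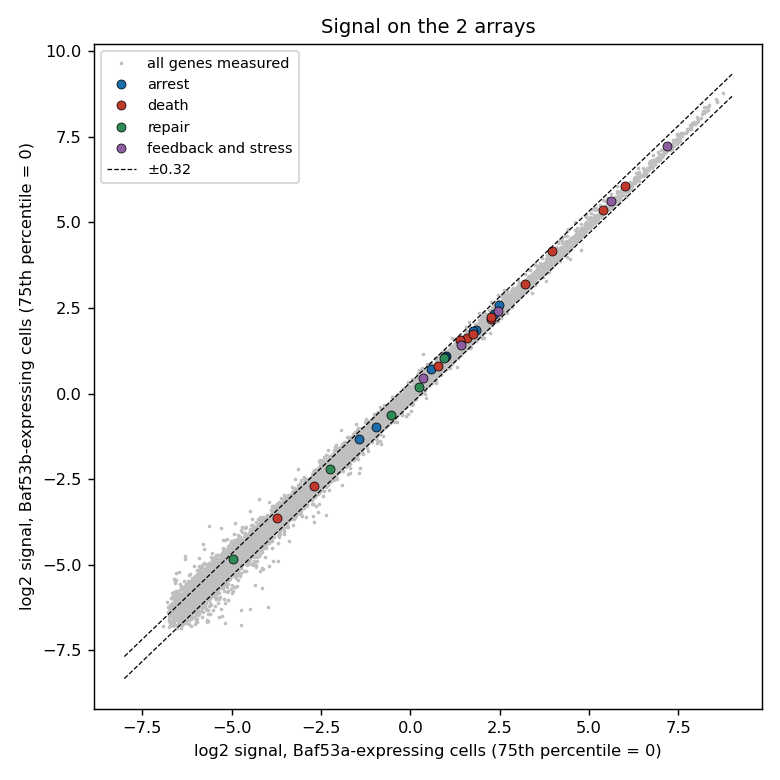
Log2 signal of each gene on the array of Baf53a-expressing cells (horizontal axis) and of Baf53b-expressing cells (vertical axis), both relative to the 75th percentile of the array. Grey points are the 16608 genes measured on both arrays, coloured points the 31 p53 targets by role, and dashed lines mark a log2 difference of 0.32; all 31 lie between the lines.

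In Baf53b-expressing cells 21 of the 31 were higher and 10 lower, a share of 67.7% above 0 against 49.1% of all genes. This split followed the scaling of the arrays. With each array centred on its median 13 of the 31 were higher (35.6% of all genes), and with quantile normalization 26 of the 31 (46.9% of all genes). Set against the median of all genes in the same setting, the median of the targets was higher by 0.035 in the setting used, and by 0.012 to 0.068 over all settings. The 49.1% here and below is over genes of all brightness. The median difference of all genes fell from 0.089 in the dimmest of the 5 groups to -0.065 in the brightest. In the 2 brightest groups, the median was 0.028 for the 25 targets there and -0.041 for all genes.

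For the noise of the spots, probes printed many times were used. A difference between 2 single spots had an SD of 0.0590 in the brightest of the 5 groups and of 0.274 in the dimmest. This covers noise within an array and not that of culture, labelling or hybridisation. Beyond the 95% range of this spot noise, 4 of the 31 were higher (11.5% of all genes) and 0 were lower (13.5% of all genes). These 4 were Perp, Trp53inp1, Plk2 and Ccng1. With normexp background correction 0 of the 31 passed. The limits of these 4 widened to between 0.27 and 0.40, while their differences were 0.14 to 0.17. Shares of all genes beyond the spot noise were taken in the setting used only, so the counts under other settings have none beside them. With each array centred on its median the count was again 4, but Plk2 (0.089) and Ccng1 (0.067) were within the noise and Bbc3 (-0.14) and Ddb2 (-0.15) beyond it on the lower side. With outlier spots kept, Ccng1 was also within it. Aen passed beside the 4 with quantile normalization (0.104) and cyclic loess (0.106). With the brightest probe of each gene, Cdkn1a (-0.059) was beyond the noise on the lower side, beside the same 4. The scanner software gave a larger error, which for a difference between single bright spots came to 0.204. With its errors treated as independent between spots, 1 of the 31 differed by more than its own error, Trp53inp1, as did 19.9% of all genes.

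**Figure D2:**
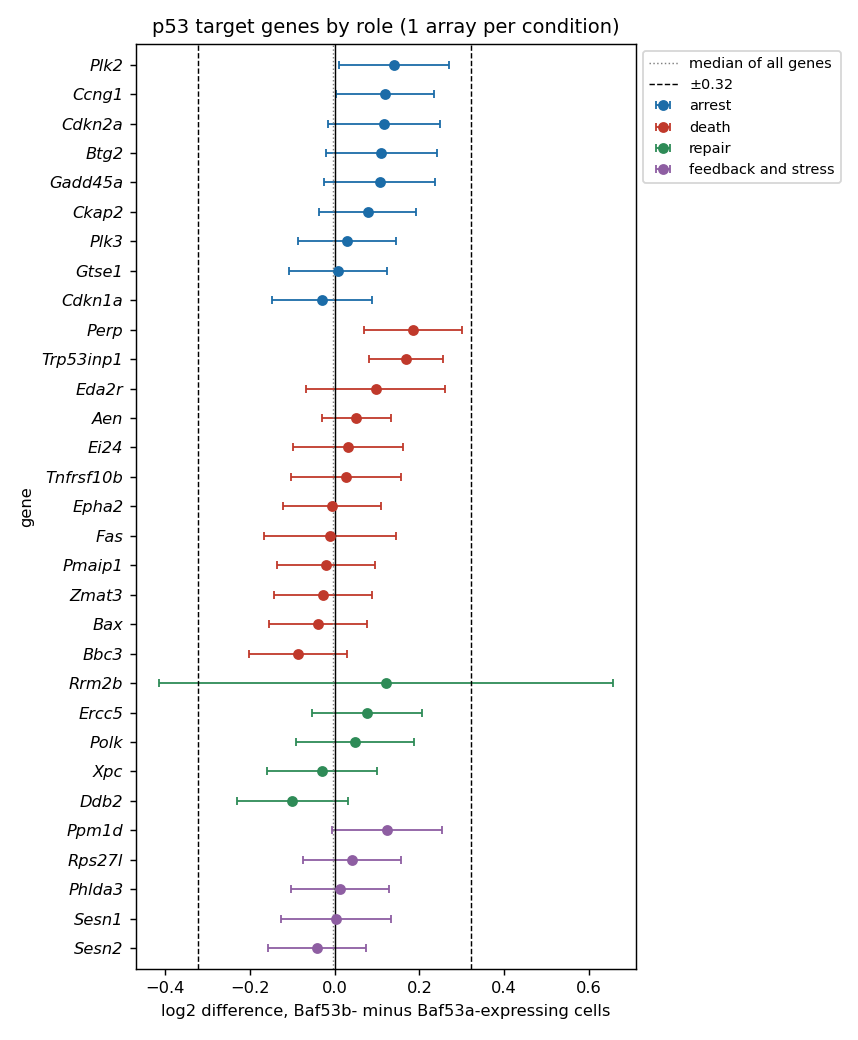
Log2 difference, Baf53b- minus Baf53a-expressing cells, for each of the 31 p53 targets, coloured by role. Bars are the 95% range expected from spot noise, the dotted line is the median of all genes (-0.0032) and dashed lines mark 0.32; every point lies inside the dashed lines, and the bar of Rrm2b, the dimmest gene of the list, is the widest.

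Among the 9 genes of cell cycle arrest, 8 were higher in Baf53b-expressing cells (49.1% of all genes), with a median of 0.11. With each array centred on its median, 6 of the 9 were higher (35.6% of all genes), as Gtse1 and Plk3 turned to -0.044 and -0.023. Cdkn1a (p21), the inhibitor of cyclin-dependent kinases, was the exception. One of its probes was printed as 10 spots. In Baf53a-expressing cells these spots ran from 1.27 to 1.43 with a median of 1.33, and in Baf53b-expressing cells from 1.23 to 1.34 with a median of 1.28, so that the spots of both arrays overlapped. The spot SDs were 0.0481 and 0.0369. The mean of the probe was 1.34 and 1.28, a difference of -0.059 that on its own exceeded the 95% range of its spot noise (0.041). The other Cdkn1a probe, made for another transcript and printed once, stood at -3.24 on both arrays, a difference of 0.0012. Averaged over both probes, Cdkn1a differed by -0.029, with a spot SD of 0.0603.

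Plk2, a polo-like kinase, stood at 0.59 and 0.73, a difference of 0.14 that was the largest of the arrest genes. Ccng1 (cyclin G1), which recruits a phosphatase to Mdm2, stood at 2.48 and 2.59, a difference of 0.12. Its difference passed the limit of the spot noise narrowly, at 0.118 against 0.116. Cdkn2a, which encodes the inhibitor Ink4a and the p53 activator Arf and is better known as an upstream regulator, gave 0.098 and 0.13 from its pair of probes. Btg2, an antiproliferative cofactor of mRNA decay, stood at 0.99 and 1.10, and Gadd45a, a stress sensor of arrest and repair, at 0.97 and 1.07. Neither difference, 0.11 for each, passed the spot noise. The mitotic genes Ckap2 (0.078) and Gtse1 (0.0072) and the kinase Plk3 (0.028) differed by less. Each of the arrest genes was thus 1.10-fold apart or less.

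The 12 death genes were split, with 6 higher (49.1% of all genes), 6 lower and a median of 0.011. This split changed with the processing. With each array centred on its median, 4 of the 12 were higher (35.6% of all genes). With quantile normalization 10 were (46.9%), with cyclic loess 9 (43.6%) and with normexp 8 (58.1%). Among the death genes of the mitochondrial route, Bax, which forms pores in the outer mitochondrial membrane, stood at 5.40 and 5.36, a difference of -0.040. Bbc3 (Puma), an activator of Bax, stood at 2.27 and 2.18 (-0.087), and Pmaip1 (Noxa), another protein of this class, at 2.26 and 2.24 (-0.020). None of these differences passed the spot noise, and after quantile normalization Bax (0.021) and Pmaip1 (0.029) turned above 0. The genes of the receptors that start death from the cell surface differed as little. Fas stood at -2.70 and -2.71, and Tnfrsf10b, a receptor of Trail, at 1.58 and 1.61. Eda2r, of the same receptor family, gave 0.036 and 0.16 from its pair of probes.

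The highest values of the whole list were also those of death genes. Perp, a membrane protein of desmosomes and an effector of p53-dependent death, stood at 3.96 and 4.15, 1.14-fold higher. Trp53inp1, which promotes death and autophagy under stress, gave 0.13 and 0.20 from its pair of probes, and 0.17 on average, 1.12-fold higher. Both exceeded the spot noise in every setting other than normexp, and both remained above 0 in all 11 settings, Perp from 0.13 to 0.24 and Trp53inp1 from 0.12 to 0.20. Of the others, the nuclease Aen gave 0.051, Ei24 of the endoplasmic reticulum 0.031, the receptor Epha2 -0.0061 and the RNA-binding protein Zmat3 -0.027.

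The 5 repair genes had a median of 0.048. Ddb2, which detects ultraviolet damage, had the lowest value of the list. It stood at -0.54 and -0.64, a difference of -0.100 within a spot noise limit of 0.13. Xpc, its partner in damage recognition, stood at 0.23 and 0.20 (-0.030), and Ercc5, the nuclease that cuts beside the lesion, at 0.95 and 1.03 (0.076). Polk, a polymerase that copies past damage, gave 0.15 from one probe and -0.056 from the other. Rrm2b, a ribonucleotide reductase subunit that supplies nucleotides for repair, was the dimmest, at -4.96 and -4.84. Its difference of 0.12 has a spot SD of 0.27, and its other probe was not well above background on either array.

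The 5 genes of feedback and stress signalling had a median of 0.013, with 4 on the higher side (49.1% of all genes) and Sesn2 on the lower. With each array centred on its median, 1 of the 5, Ppm1d, was above 0 (35.6% of all genes). Ppm1d (Wip1), the phosphatase that turns the damage response off, stood at 0.34 and 0.47, the largest difference of this group (0.12). The sestrins, which restrain growth signalling under stress, gave 0.0038 for Sesn1 and -0.041 for Sesn2. Phlda3, an inhibitor of Akt, gave 0.013, and Rps27l, a ribosomal protein gene, 0.042. Rps27l has a close paralog, and whether its probe tells them apart was not examined.

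Of the 6 genes measured with more than 1 probe, both probes had the same sign for 4, Aen, Cdkn2a, Eda2r and Trp53inp1. The signs differed for Cdkn1a and Polk, and the widest gap between the probes of a gene was 0.21, for Polk. This gap exceeded the difference of every gene on the list.

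The targets with and without a decamer in a promoter window were set side by side without a test. The 12 genes with one had a median difference of 0.045 (from -0.040 to 0.12), the 11 genes whose windows held none 0.028 (from -0.087 to 0.14), and the 8 genes without a window 0.0035 (from -0.100 to 0.19). The ranges of the 3 groups overlapped. All 31 differences lay between -0.100 and 0.19, so this overlap cannot decide whether genes with a decamer differ from the rest. Bases outside these windows were not searched, so a gene without a decamer here may have one elsewhere.

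The regulators of p53 were read from a list of 20 genes, all measured. Trp53 itself stood at 0.66 and 0.44, a difference of -0.22, or 1.16-fold lower, which was the lowest of the regulators and beyond the spot noise. It rests on 1 probe with 1 spot on each array. Its difference also exceeded its software error (0.204), as did 19.9% of all genes. Beyond the spot noise, 3 of the 20 regulators were higher (11.5% of all genes) and 2 lower (13.5%). Mdm2, at once a target and the main inhibitor of p53, gave 0.086, and Mdm4 -0.087. Neither passed the spot noise. Of the 20 regulators, 1 was higher by at least 0.32 (5.58% of all genes) and 0 were lower by as much (2.01% of all genes), with a median of 0.029. The 1 was Trp63, of the p53 family, at 0.38. It rests on 1 bright probe, at 4.62 in Baf53a-expressing cells. A dim probe for another Trp63 transcript pointed the opposite way, at least 2.15-fold lower in Baf53b-expressing cells, where it did not clear the background.

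A further list of 20 p53 targets outside the 31 had a median of 0.079, with 13 higher in Baf53b-expressing cells (49.1% of all genes). Of the 20, 2 were higher by at least 0.32 (5.58% of all genes) and 0 lower by as much (2.01%). Tap1 was in the group of brightness next to the dimmest, where 7.48% of genes were higher by 0.32. Thbs1 was in the middle group, where 2.36% were. Tap1, a peptide transporter of antigen presentation, stood at -3.74 and -3.23, a difference of 0.51 from a probe with 9 and 8 usable spots. Thbs1 (thrombospondin 1), a matrix protein, stood at -2.29 and -1.82, a difference of 0.46. Tigar, Fdxr and Siva1, which act in sugar metabolism, mitochondria and death, gave -0.077, -0.085 and -0.11, the last beyond the spot noise. The lowest was Trp53i11, at -0.14. The lists of regulators and of other targets were spread more widely than the 31 genes, with SDs of 0.14 and 0.18 against 0.0737. These SDs were not matched for brightness, and the SD of all genes rose from 0.0997 in the brightest group to 0.312 in the dimmest.

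**Figure D3:**
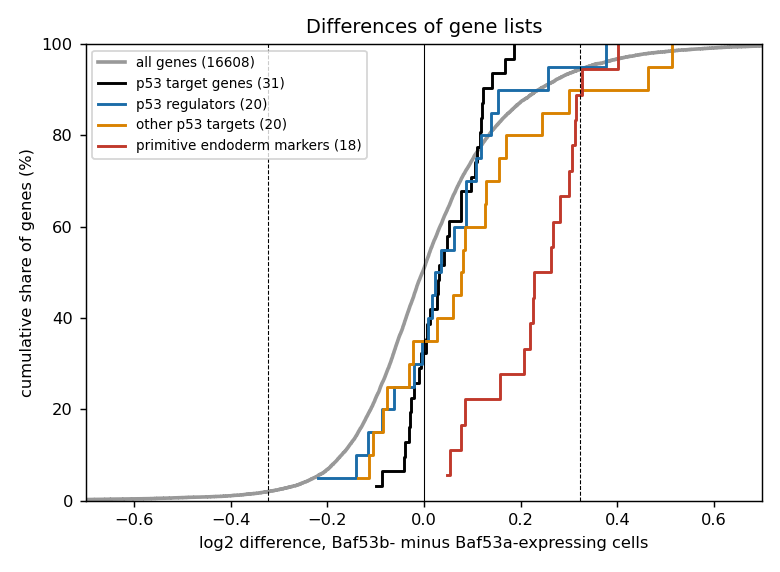
Cumulative share of genes (vertical axis, percent) at or under each log2 difference, Baf53b- minus Baf53a-expressing cells, for all 16608 genes, the 31 p53 targets, the 20 p53 regulators, the 20 other p53 targets and the 18 primitive endoderm markers. The curve of the 31 targets is the steepest and stays inside the dashed lines at 0.32, while that of the primitive endoderm markers lies wholly above 0.

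**Figure D4:**
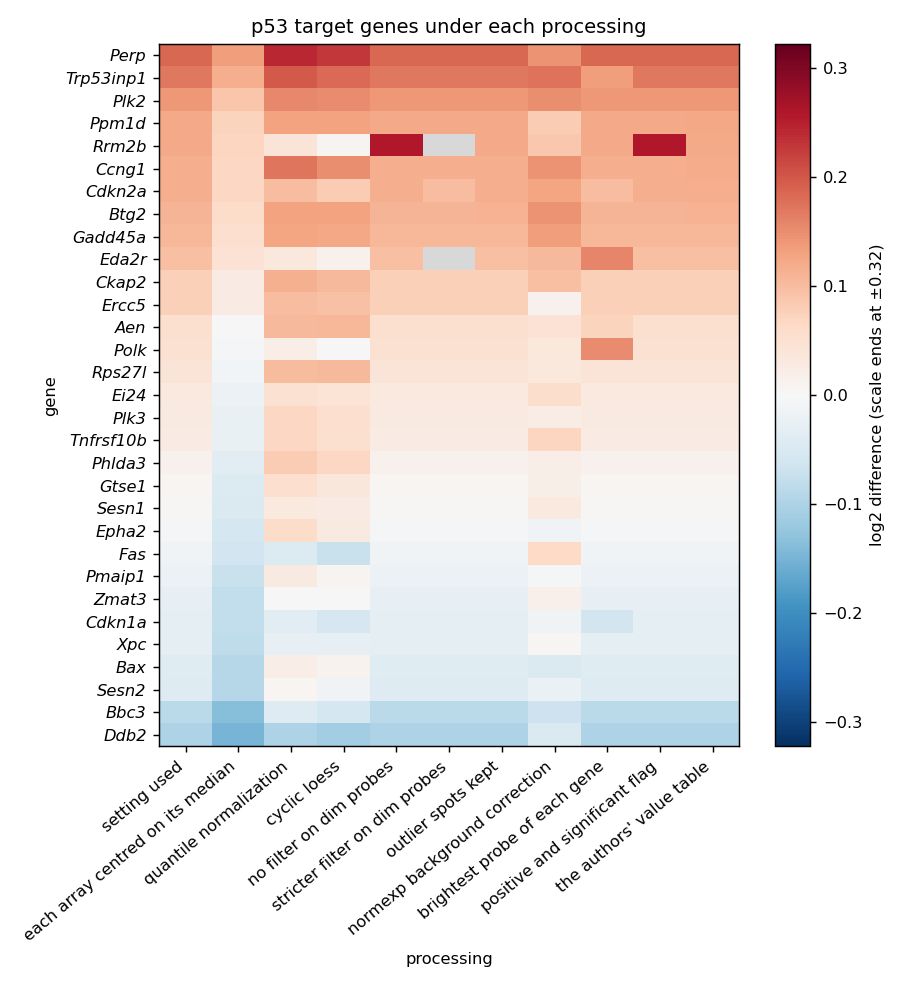
Log2 difference of each of the 31 p53 targets (rows, in order of the setting used) under the setting used and 10 alternatives (columns), on a colour scale that ends at 0.32. Grey marks a gene without a probe past the stricter filter; 13 genes were above 0 and 3 below 0 in every setting that measured them, and 15 changed sign.

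Over the 11 settings, 13 genes were above 0 in each setting that measured them, among them Perp, Trp53inp1, Plk2, Ccng1, Btg2, Gadd45a and Ppm1d. Cdkn1a, Bbc3 and Ddb2 were below 0 in every setting. The remaining 15 changed sign with the setting, Bax and Pmaip1 among them. Many settings were close to the one used. No target changed sign with dim probes left in, the stricter limit, outlier spots kept, the brightest probe, the weaker flag or the deposited table. Signs changed for 8 with centring, 5 with quantile normalization, 4 with cyclic loess and 3 with normexp. Such sign counts were not made for all genes.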

How the data were processed

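RNA of 2 cultures was hybridised to 1-colour mouse arrays, both on 1 slide, with 0.2 μg RNA each. Using Feature Extraction 11.0.1.1, the authors deposited for each spot the intensity with the background removed and spatial trends corrected, not normalized between arrays, with its error and flags. The authors also deposited a table of 30488 probes, each a ratio. On each array all 30479 values that could be matched were, within 0.1%, the processed signal divided by a constant (1160 and 1126), close to the 75th percentile.

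Here, spots marked as outliers were left out, the spots of each probe were averaged on the log2 scale, and levels were set relative to the array's 75th percentile (signals of 1161 and 1128). A probe was used where at least 50% of its spots were well above background on both arrays (29247 of 39411 probes). The lowest signals so marked were 8.45 and 9.75. No spot was saturated. Probes were named through RefSeq accessions (GRCm38.p6, names only, since the array design is on another build), and the probes of a gene were averaged. The spot noise came from probes with at least 5 spots left, in 5 groups of brightness. With 1 array per condition no test was possible, and the number of arrays limits the precision. The members and lists were chosen with earlier results of these data known. The rule for named genes took all 31 targets, and of the regulators and other targets Trp53, Mdm2, Mdm4 and those apart by at least 0.32 on the log2 scale. Tigar, Fdxr and Siva1 were named after their values were seen. The comparison with the software error, the brightest groups and the genes with a decamer were also added after seeing the data.

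The alternatives were centring on the median, quantile normalization, cyclic loess, leaving the dim probes in, a stricter limit on them, keeping outlier spots, normexp with an offset of 50, the brightest probe of a gene, a weaker detection flag and the deposited table. Calculations used Python 3.11.15 with numpy 2.4.6 and pandas 2.3.3, and R 4.3.3 with limma 3.58.1, and were tested on simulated data.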

Additional observations from a re-analysis of the deposited data

How the results depend on the processing

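With a single array on each side, no replicate could be left out and pairing did not apply. The counts of p53 targets higher by 0.32 on the log2 scale, lower by 0.32 and 2-fold apart were 0 in all 10 alternatives. With each array centred on its median, a shift of all genes alike, the median of the targets was -0.020, with 13 genes higher (35.6% of all genes). The medians of the arrest, death, and feedback and stress genes were then 0.055, -0.041 and -0.038. Quantile normalization gave 0.059 for all targets, 0.042 for the death genes and 0.082 for the feedback and stress genes, and cyclic loess 0.065 for the latter. With normexp the median of the death genes was 0.052. Outside the spot noise lay 0 targets, against 4, with differences of 0.14 to 0.17 for those 4 and wider noise limits. Apart from these limits and from centring, the cause was not tested. The medians under the other 6 alternatives moved by less than their spot noise. Of the single genes, 5 moved by more than their spot SD under quantile normalization, 3 under cyclic loess, 2 with centring and 1 with the brightest probe. Without the filter, or with the weaker flag, the dim Rrm2b gave 0.26. Cyclic loess gave 0.0085 for it, and both values lie within 1 spot SD of that in the setting used.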
